A study of Homo sapiens with 6 samples.

Results

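The regions described here are the 4 zinc finger gene clusters of human chromosome 19, defined by their positions in 40-kb bins (hg19). They are chr19:19800001-24400000, chr19:36400001-38400000, chr19:52000001-54000000 and chr19:56000001-59000000, called the first, the second, the third and the fourth cluster below. They held 290 of the 1479 bins of chromosome 19, with 115, 50, 50 and 75 bins in the order of the clusters, and the other 1189 bins of the chromosome were the control. Chromatin contacts were measured by in situ Hi-C, in which DNA cut with MboI is ligated in the nucleus and each read pair records a contact of 2 sites, in 4 established cancer cell lines for which the labels name no treatment, with 1 map each of SNU-C1 and SW480 (colon cancer), HCC1954 (breast cancer) and OE33 (esophageal adenocarcinoma). SW480 had in addition a map of each of its 2 numbered replicates, whose intrachromosomal read pairs summed to 133363519 against 133401873 in the unnumbered map, so the unnumbered map was taken as the pool of both. Apart from SW480 each line has a single map, so a difference between lines cannot be told apart from one between libraries, and every line carries its own rearranged genome.

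Human chromosome 19 carries the largest collection of genes for KRAB zinc finger proteins, which arose by repeated tandem duplication. These proteins bind DNA through arrays of zinc fingers, many of them on transposable elements, and recruit the corepressor TRIM28, around which the histone methyltransferase SETDB1 writes H3K9me3. The clusters themselves are known to carry H3K9me3 over the coding exons of the fingers, and chromatin of this kind is known to gather into a compartment of its own.

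In the annotation lifted to this build, 173 of the 246 protein-coding genes with a start site in the clusters were zinc finger genes by their symbols. The first cluster was the purest, with 36 zinc finger genes among 39 genes, followed by 38 of 54 in the third, 70 of 107 in the fourth and 29 of 46 in the second. Elsewhere on the chromosome 90 of 1231 genes were zinc finger genes. The first cluster was also the sparsest, at 8.48 genes per Mb against 23, 27 and 35.7 in the second, the third and the fourth clusters and 25.9 in the rest. Median GC content of the bins was 40.9%, 42.3%, 44.4% and 45.4% in the 4 clusters and 50.3% in the rest of the chromosome.

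The repeated unit of these genes can be read in the reference genome. A finger of the C2H2 type and its linker usually take 84 bases of coding sequence, and the linker residues Gly-Glu-Lys are often written as GGAGAGAAA. Below are 168 bases of coding sequence on the gene's strand for the named gene of a cluster with the most such linkers spaced by exactly 84 bases (ZNF568 tied with ZNF382), shown because they make the tandem repeat of these genes visible, with each GGAGAGAAA in capitals. They lie at chr19:22156996-22157163 (minus strand) in ZNF208 of the first cluster, at chr19:37441631-37441798 (plus strand) in ZNF568 of the second and at chr19:53117134-53117301 (minus strand) in ZNF83 of the third (GRCh37).
ZNF208: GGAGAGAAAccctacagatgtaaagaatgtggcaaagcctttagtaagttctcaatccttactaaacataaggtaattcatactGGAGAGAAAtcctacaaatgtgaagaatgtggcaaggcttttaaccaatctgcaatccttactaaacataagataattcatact
ZNF568: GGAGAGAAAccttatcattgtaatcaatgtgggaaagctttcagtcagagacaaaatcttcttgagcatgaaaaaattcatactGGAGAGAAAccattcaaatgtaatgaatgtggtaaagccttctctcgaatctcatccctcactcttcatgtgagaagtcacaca
ZNF83: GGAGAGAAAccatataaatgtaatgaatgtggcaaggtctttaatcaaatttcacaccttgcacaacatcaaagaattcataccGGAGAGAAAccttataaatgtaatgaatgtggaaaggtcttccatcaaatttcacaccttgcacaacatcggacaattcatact

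Within a stretch, the 84-base units were identical at 71 positions in ZNF208, 53 in ZNF568 and 76 in ZNF83. Between genes, 74.4% of the 168 bases were identical for ZNF208 and ZNF83, 71.4% for ZNF568 and ZNF83 and 67.3% for ZNF208 and ZNF568. None of the 5 genes named for the fourth cluster (PEG3, ZIM3, ZSCAN4, ZNF274 and ZNF417) held a pair of these 9 letters 84 bases apart in its longest coding exon. Counted on both strands, GGAGAGAAA occurred 134 times per Mb in the first cluster, 234 in the third and 50 in each of the second and the fourth, against 39.0 in the rest of the chromosome. Bins with at least 3 matches made up 50.4%, 22%, 72% and 30.7% of the 4 clusters and 17% of the rest.

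Near-identical copies are a known limit of short reads, because a read that fits several places is usually dropped. A bin was used when its read pairs reached 0.25 of the genome's median in all 4 lines. That left 230 of the 290 cluster bins and 1014 of the other 1189 bins of the chromosome. The second, the third and the fourth clusters kept 48 of 50, 48 of 50 and 75 of 75 bins. The first cluster kept 59 of 115, and HCC1954 set that limit, since 113 bins passed in SW480, 109 in OE33, 95 in SNU-C1 and 59 in HCC1954. Median coverage of the first cluster relative to the genome was 0.481 in SW480 and 0.356 in SNU-C1, with 0.255 in HCC1954 and 0.553 in OE33. ZNF43 and ZNF208 lay in tiles that did not pass, so they have no tile values below. Chromosome 19 held 2175515 intrachromosomal read pairs in SW480 and 1153594 in SNU-C1, with 1008449 in HCC1954 and 1541275 in OE33.

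The first question was whether the clusters touched each other more than their distance alone would give. Bins were averaged into 200-kb tiles, and the contact of each pair of tiles from different clusters was divided by the mean contact of chromosome 19 tile pairs at the same distance and arm status that were not both in clusters. Over the 820 tile pairs between clusters, which lay 2.2 to 39.0 Mb apart, contacts were 3.21-fold the expected level in SW480 and 4.15-fold in SNU-C1, with 2.55-fold in HCC1954 and 2.80-fold in OE33. On the log2 scale these were 1.68, 2.05, 1.35 and 1.48, with a mean of 1.64 (SD 0.31 across lines, n = 4). All 4 lines were above 0, and the exact two-sided sign-flip permutation test over lines gave p = 0.13, the smallest value that n = 4 allows. The SW480 replicates gave 1.70 and 1.68. Against control pairs that both had a negative compartment score, the mean fell to 0.89, with all 4 lines above 0. Without iterative correction HCC1954 was at 0.70. The read pairs behind these values numbered 25622, 13478, 6872 and 16232, so that 95% Poisson intervals of the fold, which cover counting error only, were 3.18 to 3.25, 4.08 to 4.22, 2.49 to 2.61 and 2.75 to 2.84.

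All 6 pairs of clusters were above expectation in every line, as the plot of contacts by cluster pair shows. The first and the second clusters, on different arms of the chromosome and 12.2 to 18.4 Mb apart, reached 4.40-fold in SW480 and 5.64-fold in SNU-C1, with 2.35-fold in HCC1954 and 4.59-fold in OE33. For the second and the third clusters the values were 4.25, 5.05, 2.93 and 4.02 in the same order of lines. The second and the fourth clusters gave 4.33, 4.73, 2.46 and 2.88. The most distant clusters, the first and the fourth, at 31.8 to 39.0 Mb still gave 2.95, 3.33, 2.18 and 2.42. The nearest clusters, the third and the fourth, gave 2.71, 2.84, 2.63 and 2.34, which was the narrowest range across lines of the 6 pairs. HCC1954 was the lowest line for 5 of the 6 pairs, and OE33 for the third and the fourth clusters. Only the first and the third clusters stood apart in a single line, at 8.86-fold in SNU-C1 against 2.57, 2.20 and 2.33 in SW480, HCC1954 and OE33. The median over the tile pairs of these clusters was 2.89 in SNU-C1, beside 2.62, 1.84 and 2.35, so the lines were closer by the median than by the mean.

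**Figure D1:**
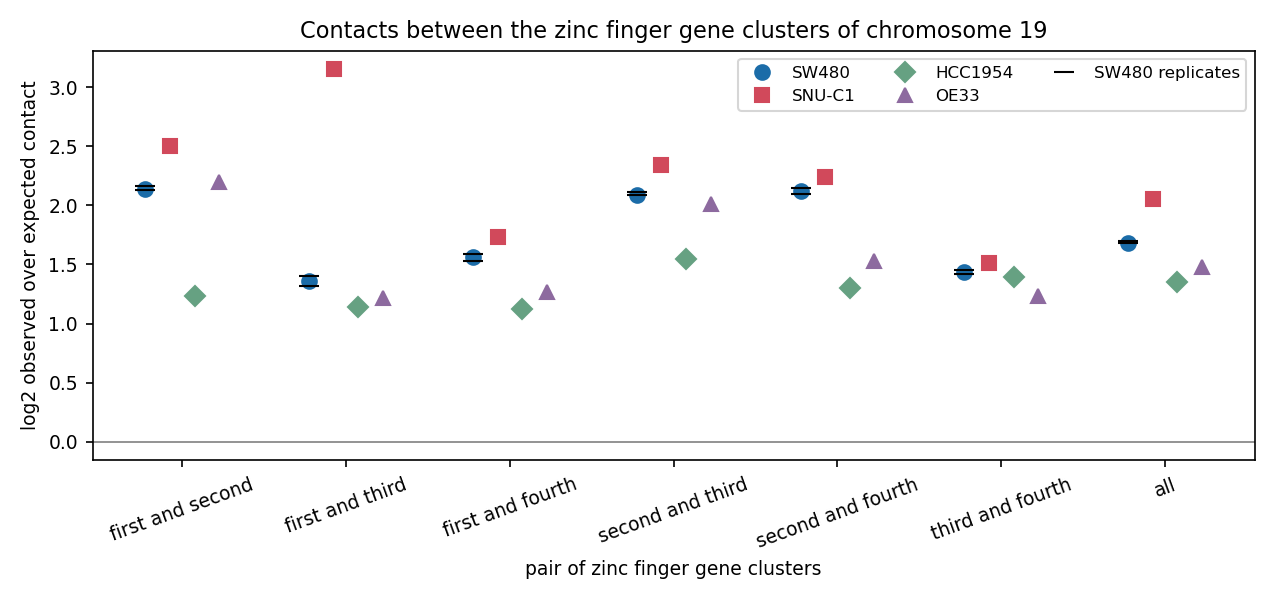
Log2 ratio of observed to expected contact (y axis) for each pair of clusters and for all pairs together (x axis), with 1 point per cell line and short black bars for the 2 SW480 replicates. All points lie above 0, from 1.12 for the first and the fourth clusters in HCC1954 to 3.15 for the first and the third clusters in SNU-C1.

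Most tile pairs between clusters were enriched. Of the 820 tile pairs between clusters, 1.5 times the expected contact was reached by 695 in SW480 and 700 in SNU-C1, with 596 in HCC1954 and 688 in OE33. These shares were 84.8%, 85.4%, 72.7% and 83.9%, beside a background over all 29767 chromosome 19 tile pairs at least 2 Mb apart of 20.7%, 23.1%, 22.1% and 22.2%. In all 4 lines at once, 464 of the 820 pairs (56.6%) passed, beside 4.94% of all pairs. Across the 820 pairs the observed over expected values of the SW480 replicates correlated at r = 0.65. Between lines r was lower, at 0.41 for SW480 and OE33, 0.31 for SW480 and HCC1954 and 0.21 for SW480 and SNU-C1. It was 0.12 for HCC1954 and OE33, 0.12 for SNU-C1 and OE33 and 0.10 for SNU-C1 and HCC1954. These correlations count tile pairs that share tiles and libraries and are given as a description.

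The highest tile pair of each cluster pair, by the mean of the 4 lines, names the genes at its ends. For the first and the second clusters it joined the tile of ZNF93, ZNF682 and ZNF90 (20 Mb) with that of ZNF540, ZNF571 and ZFP30 (38.0 Mb), at 5.82 times the expected contact in SW480 and 8.48 in SNU-C1, with 6.0 in HCC1954 and 11.8 in OE33, from 25, 17, 7 and 20 read pairs. A tile at 57.0 Mb with ZNF471, ZFP28, ZNF470, ZNF71 and ZNF835 was the fourth cluster's end of the highest pair with each of the other 3 clusters. Its partner in the second cluster held ZNF829, ZNF568 and ZNF420 (37.4 Mb), at 9.23, 11.4, 3.06 and 6.59 times expectation in SW480, SNU-C1, HCC1954 and OE33. In the third cluster the partner held ZNF480, ZNF610, ZNF880, ZNF528, ZNF534 and ZNF578 (52.8 Mb), at 4.25, 7.55, 7.27 and 3.69 times. In the first cluster it held ZNF100 (21.8 Mb), at 4.36, 9.98, 5.10 and 3.97 times from 12, 15, 3 and 7 read pairs. The ZNF100 tile lies within 1 Mb of the corner of high contacts in SNU-C1 that is described below. For the second and the third clusters the highest pair joined ZFP14, ZFP82 and ZNF566 (36.8 Mb) with the 7 zinc finger genes around ZNF350 (52.4 Mb), at 7.77, 12.3, 4.49 and 4.91 times. These pairs were picked for their height, so the values describe them and test nothing.

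The tiles of single zinc finger genes are given next. ZNF91, a repressor of SVA retrotransposons, lay in a tile whose mean contact with the other 3 clusters was 3.65 times expectation in SW480 and 5.56 in SNU-C1, with 1.76 in HCC1954 and 3.67 in OE33. ZNF382 had 5.43, 6.13, 3.49 and 4.32, and ZNF568, whose mouse counterpart controls a placental Igf2 transcript, shared with ZNF420 a tile at 4.92, 5.94, 2.70 and 4.38. ZFP30 had 4.73, 5.29, 2.89 and 4.96. PEG3, an imprinted gene that is expressed from the paternal allele, lay in a tile at 4.24, 4.59, 3.13 and 3.90. ZNF274, a protein that brings SETDB1 to the 3' ends of other zinc finger genes, lay in a tile at 4.39, 5.35, 3.29 and 2.50. ZSCAN4, known from telomere maintenance in early embryos, gave 4.02, 4.41, 2.47 and 2.27. ZNF331 starts at 54 Mb, just past the end of the third cluster, and its tile still had 3.28, 4.10, 2.38 and 2.72. For all 9 of these genes HCC1954 or OE33 was the lowest line and each value was above 1. Values for the other named genes follow. ZNF85 had 2.91, 5.21, 2.47 and 2.32 and ZNF675 3.63, 4.46, 1.62 and 2.71 in the first cluster. In the third, ZNF350 had 4.36, 8.11, 3.02 and 3.21, ZNF83 3.26, 5.79, 2.50 and 2.38, and ZNF611 3.32, 5.47, 2.75 and 2.24. ZIM3, a strong KRAB repressor, had 4.16, 4.55, 2.63 and 2.51 and ZNF417 4.18, 4.48, 2.74 and 2.50 in the fourth. SNU-C1 was the highest line for all 7, but the tiles of ZNF85, ZNF350, ZNF83 and ZNF611 lie within 1 Mb of the corner of high contacts in SNU-C1 that is described below, and its contacts enter their SNU-C1 values.

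Tiles in which no zinc finger gene starts, and bins that overlap none, were looked at separately. In 5 usable cluster tiles no zinc finger gene started, and their median contact with the other clusters was 1.77, 1.97, 1.87 and 3.13 times expectation in the 4 lines. For the 24 cluster tiles with 1 to 3 such genes it was 3.54, 5.42, 2.48 and 3.62, and for the 18 with 4 or more it was 4.02, 4.59, 2.75 and 2.50. The 5 tiles differed among themselves. The first tile of the second cluster had 1.59, 1.78, 1.48 and 1.48. The tile at 23.6 Mb, into which part of ZNF675 extends, had 2.84, 4.65, 1.48 and 3.35. The tile at 57.4 Mb held no start site of any protein-coding gene, and its contact with the other clusters was 4.19, 4.20, 3.02 and 3.16 times expectation in SW480, SNU-C1, HCC1954 and OE33, among its zinc finger neighbours. With the cluster bins restricted to the 52 usable ones that overlap no zinc finger gene, the log2 contact between clusters was 1.12 in SW480 and 1.59 in SNU-C1, with 0.98 in HCC1954 and 1.28 in OE33. The values were lower than with all bins in each line and above 0 in each, and this set of bins was chosen after the data were seen.

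Inside the fourth cluster the contacts stepped up at 56.8 Mb. The tiles at 56.2 and 56.4 Mb held genes of the NLRP family (sensors of the innate immune system and of the early embryo) and no zinc finger gene, and the tile at 56.6 Mb held ZNF787, ZNF444, ZSCAN5B and ZSCAN5C. Their contacts with the other clusters were 1.77, 1.75 and 1.95 times expectation for SW480 and 1.78, 1.97 and 1.92 for SNU-C1. The next tile, with ZSCAN5A, ZNF582, ZNF583 and ZNF667, was at 3.70 in SW480 and 3.90 in SNU-C1. In HCC1954 the same 4 tiles had 2.05, 1.87, 1.93 and 2.97. OE33 had 3.13, 3.05, 2.31 and 3.45, so that the NLRP tiles were close to the tile at 56.8 Mb in this line, which was not tested. The first tile of the fourth cluster, at 56 Mb, was the lowest of the cluster in every line, at 1.08, 1.48, 1.14 and 1.36.

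**Figure D2:**
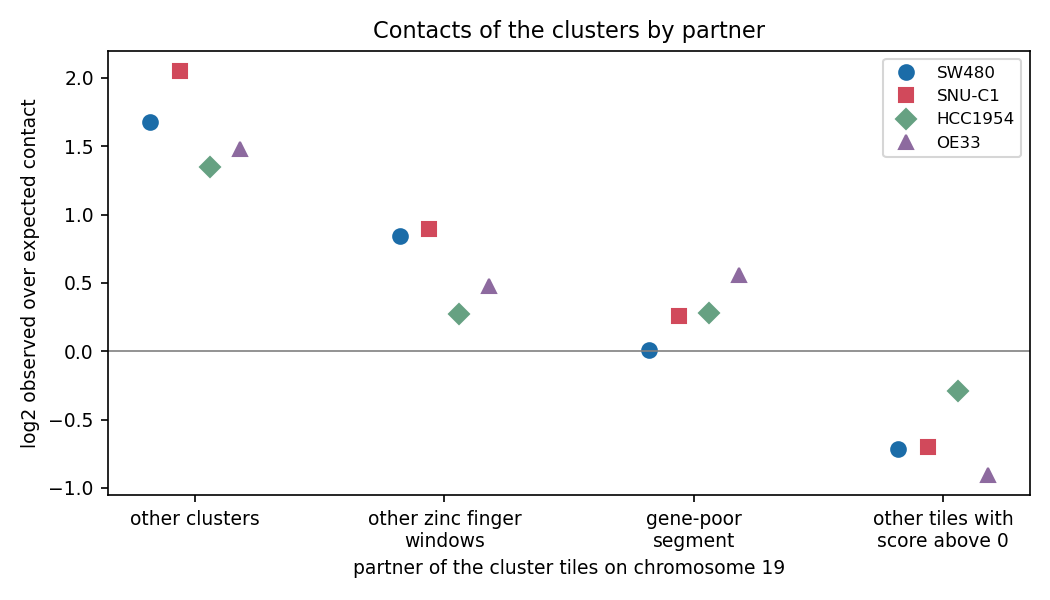
Log2 ratio of observed to expected contact (y axis) of the cluster tiles with 4 kinds of partner on chromosome 19 at least 2 Mb away (x axis), with 1 point per line. Contacts among clusters are highest in every line, and contacts with other tiles that have a positive compartment score are below 0 in every line. The compartment score is built from the same contacts.

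The next question was what else on the chromosome the clusters touched. There were 6 further windows of 1 Mb with at least 5 zinc finger genes, starting at 2, 9, 11, 12, 35 and 44 Mb. Contacts of the clusters with these windows had a log2 ratio of 0.84 in SW480 and 0.89 in SNU-C1, with 0.27 in HCC1954 and 0.48 in OE33. The second kind of partner was a gene-poor segment from 28 to 33 Mb beside the centromere, chosen as a comparator after the data were seen. With it the clusters had log2 ratios of 0.0063, 0.26, 0.28 and 0.56 in the same order. Tiles of the segment at least 2 Mb apart also contacted each other above expectation, at 0.86, 1.43, 1.09 and 1.66. In OE33 this exceeded the 1.48 among clusters. Pairs inside the segment are nearer to each other than most pairs between clusters. The nearest clusters, the third and the fourth at 2.2 to 6.8 Mb, had log2 ratios of 1.44, 1.51, 1.39 and 1.23 in the same order of lines. Contacts with the remaining tiles that had a positive compartment score were below expectation, at -0.71, -0.70, -0.29 and -0.91. That score, described below, is built from the same contacts, so these low values follow largely from how the tiles were chosen. Contacts among clusters exceeded those with the gene-poor segment by 1.36 on the log2 scale (SD 0.43, 4 of 4 lines), with p = 0.13 in the exact permutation test over n = 4 lines, the smallest it allows. The difference between the further zinc finger windows and the gene-poor segment was 0.84 in SW480 and 0.63 in SNU-C1, but -0.0090 in HCC1954 and -0.083 in OE33, a mean of 0.35 with exact p = 0.5 over n = 4 lines. In SW480 the replicates gave 0.85 and 0.85 for the further windows and 0.032 and -0.014 for the gene-poor segment.

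The further zinc finger windows were not alike. In the window at 9 Mb the mean contact with the clusters was 2.21 times expectation in SW480 and 2.47 in SNU-C1, with 1.28 in HCC1954 and 1.95 in OE33. The window at 44 Mb had 2.69, 3.32, 1.47 and 1.90 in the same order. By contrast the window at 2 Mb had 0.44, 0.62, 0.76 and 0.57, and all 5 of its tiles had a positive compartment score in every line. Other tandem gene families of the chromosome served as comparators. Tiles with at least 2 kallikrein genes (KLK, secreted proteases) had mean contacts with the clusters of 0.77, 1.18, 1.14 and 1.33 times expectation. Tiles of the CEACAM and PSG family (cell adhesion and pregnancy glycoproteins) had 0.92, 1.12, 0.87 and 0.73, and those of olfactory receptor genes 0.99, 1.06, 0.72 and 0.91. Tiles of the KIR and LILR receptor genes of the immune system had 1.06 in SW480 and 1.71 in SNU-C1, with 1.35 in HCC1954 and 1.67 in OE33. Each of these family values, means over 2 to 4 tiles, was below the lowest cluster mean of its line and below the 2.25 of the first cluster in HCC1954, the lowest of all. The NLRP tiles, of which those at 56.2 and 56.4 Mb lie inside the fourth cluster, had 1.49, 1.63, 1.72 and 2.63. The OE33 value was close to the 2.65 of the fourth cluster, the lowest cluster mean of that line. Median compartment scores of the NLRP tiles were negative in every line (-0.81, -1.06, -1.3 and -1.32). Those of the CEACAM and PSG tiles and of the olfactory receptor tiles were positive in every line, and the score is built from the same contacts.

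Compartments were then scored by the first eigenvector of the correlation of contact profiles along the chromosome, in SD units. The sign was set so that tiles dense in protein-coding genes other than zinc finger genes score positive. The score also correlated with chromosome arm, being lower on the long arm. This r was -0.16 in SW480 and -0.37 in SNU-C1, with -0.49 in HCC1954 and -0.32 in OE33. The median score of the 47 usable cluster tiles was -1.63 in SW480 and -1.34 in SNU-C1, with -1.25 in HCC1954 and -1.27 in OE33. The 206 other tiles had medians of 0.63, 0.63, 0.61 and 0.76. The difference, clusters minus the rest, averaged -2.03 (SD 0.17, below 0 in 4 of 4 lines), with an exact permutation p of 0.13 over n = 4 lines, the smallest it allows. Scores below 0 were found for 45 of the 47 cluster tiles in SW480, HCC1954 and OE33 and for 46 in SNU-C1, against 57 of 206 other tiles in SW480 and 68 in SNU-C1, with 61 in HCC1954 and 70 in OE33. The score is built from the same contacts as the values above, so it is another view of them. With bins limited to 0.5 of the median coverage, which left 4 bins of the first cluster, the difference in HCC1954 turned to 1.15. By rule the second eigenvector is taken if the first correlates with arm above 0.5 and more than with gene density. In HCC1954 with all usable bins these correlations were -0.49 and 0.59 in size and sign. Whether the rule came into play for the 1.15, or the lost bins did, was not tested.

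**Figure D3:**
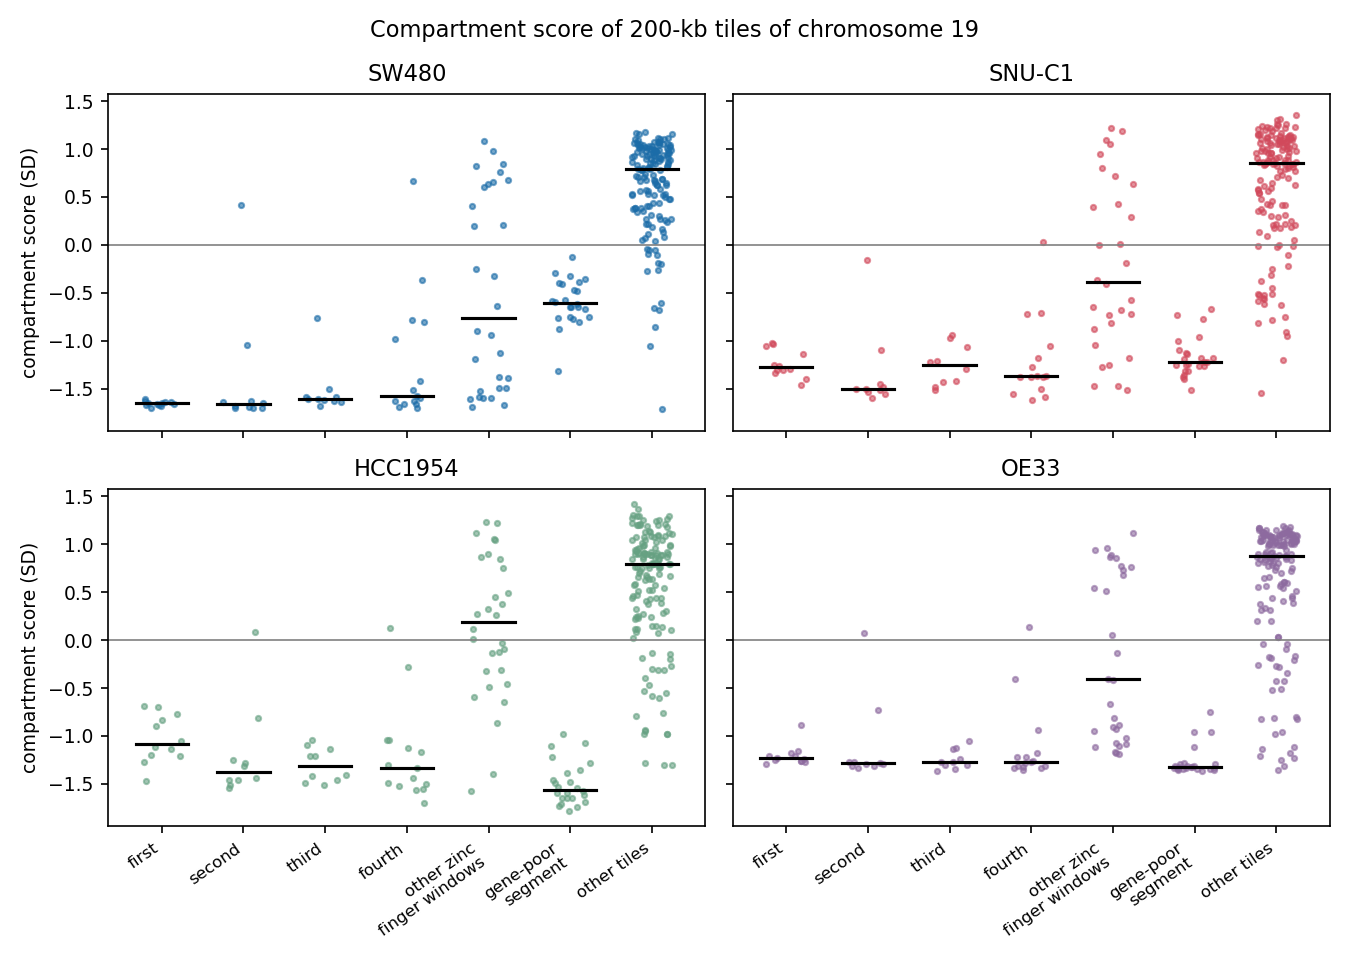
Compartment score in SD units (y axis) of the usable 200-kb tiles of chromosome 19, 1 point per tile, in each of the 4 lines, for the 4 clusters and for 3 groups of tiles outside them (x axis), with the median as a black bar. The clusters sit low in every line, while the gene-poor segment has a median of -0.61 in SW480 and -1.56 in HCC1954.

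Among clusters, the medians in SW480 lay between -1.66 and -1.58. In HCC1954 the first cluster scored highest, with a median of -1.08 against -1.38, -1.31 and -1.33 in the second, the third and the fourth. The tiles from 23.4 Mb to the end of the first cluster, with ZNF91 and ZNF675, scored from -0.90 to -0.69 in HCC1954, and -1.67 to -1.64 in SW480. The lowest tile of the first cluster by the mean of the lines held ZNF14, ZNF506 and ZNF253, at -1.63, -1.26, -1.47 and -1.27 in SW480, SNU-C1, HCC1954 and OE33. In the second cluster it held ZFP14, ZFP82 and ZNF566 (-1.71, -1.51, -1.54 and -1.28). The lowest tile of the third held ZNF160, ZNF415, ZNF347, ZNF665 and ZNF677 (-1.68, -1.49, -1.49 and -1.31), and that of the fourth held ZSCAN5A, ZNF582, ZNF583 and ZNF667 (-1.69, -1.62, -1.70 and -1.34).

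The highest scores lay mostly at the edges of the clusters. The first tile of the fourth cluster held ZNF579, ZNF524, ZNF865, ZNF784, ZNF580 and ZNF581 among 12 genes, and its score was 0.67 in SW480 and 0.025 in SNU-C1, with 0.13 in HCC1954 and 0.14 in OE33. The first tile of the second cluster held 7 genes and no zinc finger gene, and scored 0.41, -0.16, 0.090 and 0.074. At the telomeric end of the fourth cluster the tile at 58.8 Mb, with 8 zinc finger genes among 12 genes, scored -0.37, -0.71, -0.28 and -0.41. The highest tile of the third cluster, with ZNF175, had -0.76, -0.94, -1.04 and -1.37. The highest tile of the first cluster lay in its interior at 21.2 Mb, with ZNF430, ZNF714 and ZNF431, and was still low at -1.61, -1.02, -1.14 and -0.89.

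The standing of the clusters relative to the gene-poor segment differed between lines. The segment's 24 tiles had a median score of -0.61 in SW480 (range -1.32 to -0.12), above the cluster median of -1.63. In SNU-C1 it was -1.22 beside -1.34 for the clusters, in HCC1954 -1.56 beside -1.25 and in OE33 -1.33 beside -1.27. The segment lies on the long arm and the first cluster on the short arm. Whether the score's correlation with arm enters such differences between lines was not tested. Zinc finger tiles outside the clusters varied more. For the 13 tiles outside with at least 3 zinc finger genes the median score was -1.49 in SW480 and -0.72 in SNU-C1, with -0.094 in HCC1954 and -0.95 in OE33, so HCC1954 had the highest median there and 7 of the 13 tiles below 0, against 11, 12 and 10 in the other lines. Scores of the 253 tiles correlated between lines at r = 0.82 for SW480 and HCC1954 and r = 0.95 for SNU-C1 and OE33, and between the SW480 replicates at r = 0.99, as a description over tiles that share each map.

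Within a cluster the contacts depended on distance. At 80 to 200 kb, cluster bins contacted each other less than other bins of the chromosome did, and the log2 ratios were -0.37 in SW480 and -0.32 in SNU-C1, with -0.10 in HCC1954 and -0.31 in OE33. From 240 to 480 kb the ratios were 0.11, 0.17, 0.26 and 0.21. From 520 to 1000 kb they were 0.83, 0.87, 0.88 and 0.93, and from 1040 to 2000 kb 1.25, 1.28, 1.34 and 1.36. The change with distance had the same order in all 4 lines, and at over 1 Mb the lines differed by less than they did between clusters. Summed over 80 kb to 2 Mb the log2 ratio was only 0.10, 0.14, 0.29 and 0.19, a mean of 0.18 (SD 0.081, exact permutation p = 0.13 over n = 4 lines). This summed value turned negative in every line, with a mean of -0.17, when read pairs were used without iterative correction.

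The insulation score, the log2 contact across a bin within 1 Mb relative to the chromosome's mean, was higher in the clusters than in the rest by 0.31 in SW480 and 0.40 in SNU-C1, with 0.40 in HCC1954 and 0.49 in OE33 (mean 0.40, SD 0.074, exact permutation p = 0.13 over n = 4 lines). A higher score means more contact across the bin and so less insulation. The first cluster had too few usable bins for this window when all lines had to pass. With the bins usable in each line alone its mean was 0.58 in SW480, 0.54 in SNU-C1 and 0.69 in OE33, and HCC1954 gave no value. The third cluster scored 0.34, 0.27, 0.46 and 0.61 in SW480, SNU-C1, HCC1954 and OE33, and the fourth 0.25, 0.38, 0.38 and 0.48. The second cluster scored 0.056, 0.19, -0.016 and -0.21. In OE33 the second cluster differed from the rest of the chromosome, whose mean there was -0.19, by -0.013, and with the bins usable in OE33 alone this turned to 0.0071. At 0.5 of the median coverage the mean over lines was 0.11, and OE33 was at -0.014. Without iterative correction the mean was 0.21, and HCC1954 was at 0.012.

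Boundaries, the local minima of this score, framed the second cluster at nearly the same places in each line. They fell at 36.64 Mb in SW480 and OE33 and at 36.60 Mb in SNU-C1 and HCC1954, with scores of -1.27, -1.75, -0.92 and -0.95. At the other end all 4 lines had a boundary at 38.36 Mb, with scores of -1.02 in SW480 and -0.87 in SNU-C1, with -0.75 in HCC1954 and -1.55 in OE33. The boundary past the end of the third cluster lay at 54.28 Mb in SW480 and OE33 and at 54.24 Mb in SNU-C1 and HCC1954. Inside its start, SW480 had a boundary at 52.24 Mb and SNU-C1 and HCC1954 had it at 52.28 Mb, while the first boundary inside the cluster in OE33 was at 52.84 Mb. Over the 3 clusters with values there were 5 boundaries in SW480 and OE33 and 6 in SNU-C1 and HCC1954 on 6.0 Mb. That is 0.833 and 1.0 per Mb, beside 1.31, 1.26, 1.26 and 1.23 per Mb in the rest of the chromosome for SW480, SNU-C1, HCC1954 and OE33.

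Line differences between clusters exceeded the background mainly in SNU-C1. With 0.5 added to every observed over expected value, a tile pair was counted for a line if it reached 2 times the value of each other line. Of the 820 pairs between clusters, 64 (7.80%) were counted for SNU-C1, beside 1.90% of all 29767 tile pairs. SW480 had 2 (0.244%, background 1.27%), HCC1954 6 (0.732%, background 2.82%) and OE33 17 (2.07%, background 1.55%). For scale, the same 2 times rule applied to the SW480 replicates against each other (12621 and 13001 read pairs between clusters) gave 54 and 51 pairs of the 820, where a pair had to exceed a single other map. The SNU-C1 pairs were concentrated, with 46 of the 64 between the first and the third clusters, 11 between the first and the fourth, 4 between the first and the second and 1 in each of the other 3.

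The contacts of the first and the third clusters in SNU-C1 were concentrated at a sharp corner. The highest tile pair joined ZNF708, ZNF738 and ZNF493 (21.4 Mb) with ZNF616, ZNF836 and ZNF766 (52.6 Mb), at 59.1 times expectation and 212 read pairs in SNU-C1. The same tiles had 2.27 times and 18 read pairs in SW480, 2.98 and 5 in HCC1954 and 1.40 and 7 in OE33. At the level of bins, the high contacts on the first cluster's side ended at position 21640000, after the last bin with ZNF493 and before the first with ZNF429. On the third cluster's side they stopped before chr19:52760001-53080000, a run of 8 bins with ZNF766, ZNF480, ZNF610, ZNF880, ZNF528, ZNF534, ZNF578, ZNF808 and ZNF701, and resumed after it.

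The arrangement of these contacts was diagonal. In SNU-C1 the 1 Mb before the corner on the first cluster's side shared 2031 read pairs with the 1 Mb before the run on the third cluster's side, and the 1 Mb after shared 1318 with the 1 Mb after. The crossed combinations held 123 and 70. In SW480 the same 4 blocks held 284, 317, 376 and 204 read pairs, in HCC1954 53, 21, 68 and 14, and in OE33 215, 157, 159 and 200. Both diagonal blocks exceeded both crossed blocks in SNU-C1 alone. The bins after the corner had a median coverage of 0.0 in HCC1954, so its blocks are the thinnest. The place of the corner was read from these maps, so the counts describe it. The run of 8 bins between had 23 and 13 read pairs with the first cluster's sides in SNU-C1, against 115 and 111 in SW480, 21 and 7 in HCC1954 and 52 and 57 in OE33. These counts are not scaled for depth, and the run is shorter than the 1-Mb blocks. In SNU-C1 they stood beside 2031 and 1318 in the diagonal blocks, and in HCC1954 beside only 53 and 21. Its median coverage in SNU-C1 was 0.336, with 0.717 before and 0.455 after it, and 2 of its 8 bins fell below the coverage limit in this line and none in the others. Before, in and after the run the coverage was 1.11, 0.878 and 0.904 in SW480, 0.730, 0.419 and 0.409 in HCC1954 and 0.998, 0.962 and 0.919 in OE33. Coverage in the run was therefore also well below that before it in HCC1954. The insulation score at the corner was 0.27 in SNU-C1 on the first cluster's side, against 0.73 in SW480 and 0.63 in OE33, and its lowest value at the third cluster's side was -0.12 against 0.25, 0.33 and 0.47 in SW480, HCC1954 and OE33. Whether the chromosome is joined differently at these positions in SNU-C1 was not tested. Without the pair of the first and the third clusters, the log2 contact between clusters in SNU-C1 was 1.85, beside 1.71 in SW480, 1.36 in HCC1954 and 1.51 in OE33, and SNU-C1 was still the highest line. Without any pair of the first cluster it was 1.78 in SNU-C1, close to the 1.68 of SW480, with 1.40 in HCC1954 and 1.45 in OE33.

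**Figure D4:**
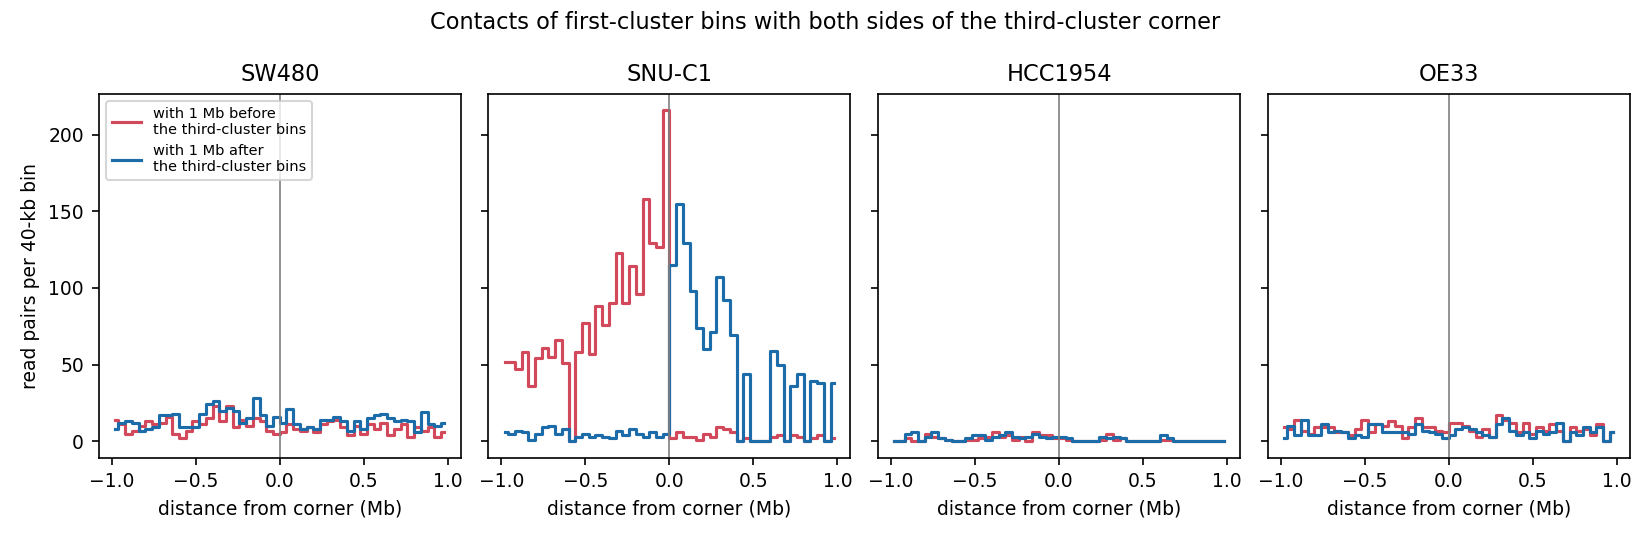
Read pairs per 40-kb bin of the first cluster (y axis) by distance in Mb from the corner (x axis, negative toward the short-arm telomere), counted with the 1 Mb before (red) and after (blue) the run of 8 bins in the third cluster, in each line. In SNU-C1 the red line rises to the corner and stops there while the blue line starts there, and the other lines stay low on both sides. Bins without a fitted factor are drawn at 0.

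Contacts with other chromosomes were compared in SNU-C1, HCC1954 and OE33 only, since nearly no pairs of this kind are in the SW480 maps. Cluster bins had fewer of them than the other bins of chromosome 19, at a log2 ratio of -0.31 in SNU-C1, with -0.27 in HCC1954 and -0.19 in OE33. The mean was -0.26 (SD 0.061, below 0 in 3 of 3 lines), and the exact permutation test gave p = 0.25, the smallest that n = 3 lines allow. Correction brings the totals of bins close together, with a coefficient of variation over chromosome 19 bins of 7.79%, 7.41% and 6.01% in SNU-C1, HCC1954 and OE33. A bin with more contacts inside chromosome 19 thus has fewer with other chromosomes. These values are therefore not independent of the contacts between and within clusters above. By cluster, the log2 ratio was -0.40, -0.48, -0.42 and -0.083 for the first to the fourth in SNU-C1. The values were -0.33, -0.18, -0.47 and -0.16 in HCC1954 and -0.27, -0.090, -0.26 and -0.15 in OE33, all below 0. These values rested on 83757, 113011 and 363213 read pairs of the cluster bins. The share of corrected contacts that went to other chromosomes was 12.4% to 15.7% over the 4 clusters and 17.4% in the rest of chromosome 19 in SNU-C1. It was 18.6% to 23.9% beside 26.9% in HCC1954, and 40.9% to 47.7% beside 48.8% in OE33. In read pairs without correction the first cluster was not below the rest in every line, with 20.6% beside 21.1% in SNU-C1, 32.6% beside 31.3% in HCC1954 and 49.4% beside 49.2% in OE33. The other 3 clusters were below the rest in read pairs too. The log2 ratio itself was lower without correction, at -0.41, -0.61 and -0.54 in the 3 lines (mean -0.52). Without correction it compares read pairs per bin, which also carry the coverage of a bin, lowest in the first cluster. The lower value therefore adds nothing to the corrected result.

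The deficit was greatest with chromosomes 17 and 22. With chromosome 17, at 14.6 protein-coding genes per Mb, the log2 ratio of clusters to the rest was -1.03 in SNU-C1, with -0.72 in HCC1954 and -0.45 in OE33. Chromosome 22 gave -1.11, -0.61 and -0.49. With chromosome 18, at 3.41 genes per Mb, the ratios were 0.046, 0.093 and 0.12, so the clusters were slightly above the rest in each line. Chromosome 13, at 2.8 genes per Mb, was below 0 in each line, at -0.146, -0.098 and -0.13. Chromosome 16, at 9.53 genes per Mb, gave -0.475, -0.272 and -0.139. Whether the ratio follows gene density was not tested. Chromosome 4 gave -0.054, -0.30 and -0.12, and the X chromosome 0.051, -0.12 and -0.095. In HCC1954 chromosome 8 stood out at 0.34, against -0.17 in SNU-C1 and -0.19 in OE33.

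**Figure D5:**
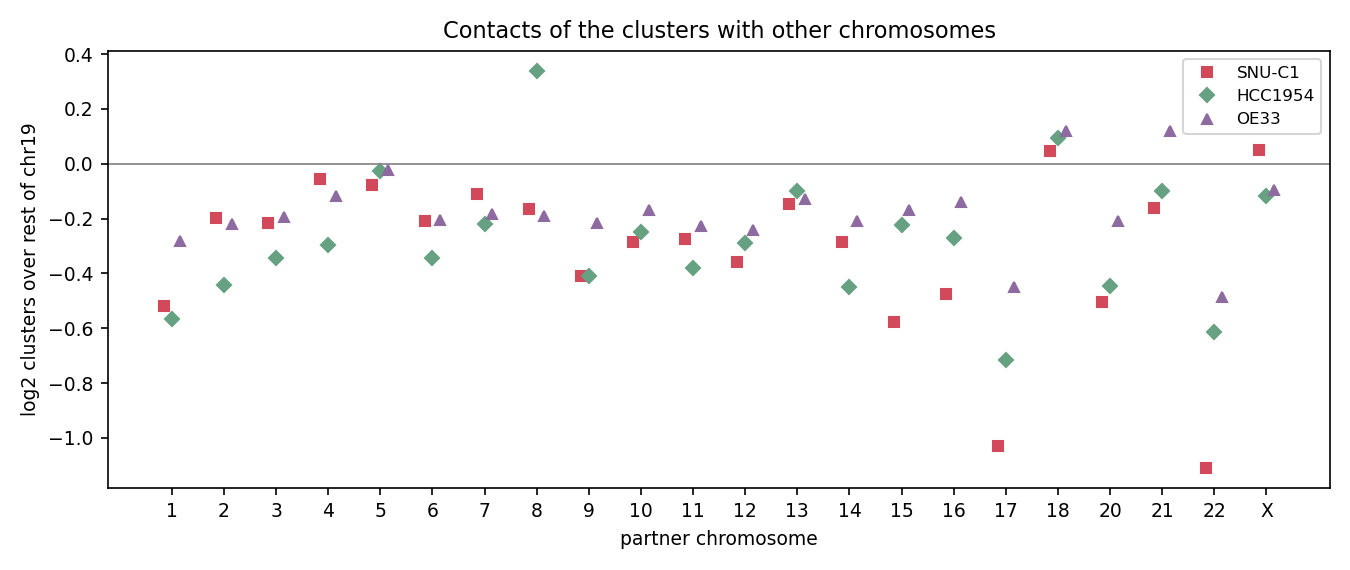
Log2 ratio of the contacts of cluster bins to those of the other chromosome 19 bins (y axis) with each of 22 partner chromosomes (x axis) in SNU-C1, HCC1954 and OE33. Most points lie below 0, the lowest for chromosomes 17 and 22, and chromosome 18 is above 0 in all 3 lines.

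Zinc finger genes are also grouped on other chromosomes, and 14 windows of 1 Mb with at least 5 of them were compared with the other windows of the same chromosome. The log2 ratio, clusters minus the rest of chromosome 19, was 0.28 in SNU-C1, with 0.036 in HCC1954 and -0.16 in OE33 (mean 0.052, SD 0.22, exact permutation p = 0.75 over n = 3 lines), so the lines had no common direction. The direction depended on the setting, since all 3 lines were below 0 with the median over windows (-0.30, -0.22 and -0.076) and for windows with at least 8 zinc finger genes (-0.90, -0.32 and -0.52). Single windows differed widely. For the window at the end of chromosome 12 (133 Mb, with ZNF605, ZNF26, ZNF84, ZNF140, ZNF891, ZNF10 and ZNF268) the cluster contacts were 11, 4.07 and 2.19 times those of other windows in SNU-C1, HCC1954 and OE33, beside 2.99, 2.13 and 1.95 times for the rest of chromosome 19. For the first 1 Mb of chromosome 4 (ZNF595, ZNF718, ZNF732, ZNF141 and ZNF721) they were 10.9, 5.05 and 3.94 times, beside 6.07, 3.36 and 2.84. On chromosome 7 the window at 64 Mb (ZNF680, ZNF107, ZNF138, ZNF273, ZNF117 and ZNF92) gave 2.92, 1.98 and 1.53 times, beside 1.07, 1.11 and 1.34. In these 3 windows, and in those on chromosome 1, chromosome 5 and at 63 Mb of chromosome 7, the clusters were above the rest in all 3 lines. The reverse held for the chromosome 7 window at 99 Mb (ZKSCAN5, ZNF394, ZSCAN21 and ZNF3 among its genes), at 0.821, 1.43 and 1.72 times beside 2.68, 2.29 and 2.27. It also held for the windows at 30 Mb of chromosome 16 and at 146 Mb of chromosome 8, and for the chromosome 16 window at 3 Mb (ZSCAN10, ZNF263 and ZNF174 among its genes), at 1.06, 1.79 and 1.14 times beside 2.42, 2.02 and 2.09. Few pairs stand behind a window in SNU-C1, with 89 read pairs for chromosome 12 and 74 for the chromosome 7 window at 64 Mb, and the windows were singled out after their values were seen.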

How the data were processed

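In situ Hi-C maps of 4 cancer cell lines were used. Per the study's methods, MboI was the enzyme, BWA the aligner (hg19) and Picard the tool for duplicates, before iterative correction. The values that the authors deposited are a signal, the corrected contact of 2 bins of 40 kb. Corrected intrachromosomal sums of chromosome 19 bins had a coefficient of variation of 3.07% in SW480 and 9.47% in SNU-C1. It was 12.2% in HCC1954 and 20.5% in OE33. The SW480 maps hold nearly no pairs between chromosomes, so correction did not rest on the same kinds of pairs in all lines. Whether this enters the differences between SW480 and the other lines was not tested. Tool versions were not given in the sources used. Whole read pairs were recovered by fitting bin factors (tolerance 0.02, values up to 20.5). Intrachromosomal read pairs numbered 133401873 (SW480), 115014329 (SNU-C1), 93501178 (HCC1954) and 89418425 (OE33). Tiles needed 3 of 5 usable bins. Expected contact was the mean at the same distance and arm status over chromosome 19 tile pairs not both in clusters. Tests were exact sign-flip permutations over lines, two-sided, with 1 value per line. The SW480 replicates were not counted as further values. The study calls its Hi-C replicates biological. No test was run across bins or tiles, which are not replicates. Genes came from GENCODE lifted to GRCh37 (version 44). Named genes were a list of known zinc finger genes, those of the lowest and highest tile of each cluster, and those of the highest tile pair of each cluster pair. The members and lists were chosen with earlier results of these data known. The analysis ran in Python 3.11.15, NumPy 2.4.6, SciPy 1.17.1 and pandas 2.3.3. The steps for contacts between clusters, the sign of the compartment score and line differences were tested on simulated data, and the other steps were not.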

Additional observations from a re-analysis of the deposited data

Results flagged for a closer look

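The second cluster had effects of opposite sign in OE33 and in the other 3 lines. Its insulation score minus that of the rest of chromosome 19 was 0.15 in SW480, 0.31 in SNU-C1 and 0.10 in HCC1954, but -0.013 in OE33, which turned to 0.0071 with the bins usable in OE33 alone. Its contacts within 80 kb to 2 Mb had log2 ratios of 0.14 in SW480, 0.21 in SNU-C1 and 0.087 in HCC1954, and -0.030 in OE33. The difference between lines was not tested, since each line other than SW480 has 1 map.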

How the results depend on the processing

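The mean over lines kept its direction under all 18 alternatives for contacts between clusters (0.89 to 1.96), all 9 for the compartment score (-2.11 to -1.17), all 7 for insulation (0.11 to 0.54) and all 6 for contacts with other chromosomes (-0.52 to -0.21). The lowest between-cluster value came from control pairs that were both below 0 on the compartment score, at 1.15 in SW480 and 1.16 in SNU-C1, with 0.75 in HCC1954 and 0.49 in OE33. Expectation from all chromosomes gave 1.04. Without iterative correction contacts between clusters had a mean of 1.27 (HCC1954 0.70) and insulation 0.21 (HCC1954 0.012), and contacts with other chromosomes -0.52. Uncorrected values also carry the coverage of the bins, so the -0.52 adds nothing to the corrected result. Leaving out either SW480 replicate gave 1.64 and 1.65, 0.18 and 0.18 within clusters, -2.03 and -2.03 for the score and 0.40 and 0.40 for insulation. Contacts within clusters reversed without iterative correction, to -0.17 (SW480 -0.033, SNU-C1 -0.075, HCC1954 -0.29, OE33 -0.29), and the median over bin pairs gave 0.78. At 0.5 of the median coverage 102 of the 230 cluster bins were left, 4 of them in the first cluster, and the score difference became 1.15 in HCC1954 and insulation -0.014 in OE33. Contacts with zinc finger windows of other chromosomes had no stable direction. Their mean was -0.11 at that coverage (SNU-C1 -0.089), -0.20 with the median over windows (SNU-C1 -0.30, HCC1954 -0.22, OE33 -0.076) and -0.58 for windows with at least 8 genes (SNU-C1 -0.90, HCC1954 -0.32, OE33 -0.52), so that all 3 lines were below 0 in the last 2 settings. With 4 times in place of 2, and an observed over expected value of at least 4, line differences numbered 22 for SNU-C1 and 0 for SW480, HCC1954 and OE33. The cause of these changes was not tested. Alternatives that used bins usable in a single line, bins without zinc finger genes, 3 clusters at a time, or all but the pair of the first and the third clusters were added after the data were seen. No paired analysis was possible because only SW480 has numbered replicates. The exact sign-flip test has its smallest p at 0.13 with 4 lines and at 0.25 with 3, so its p-values say nothing about stability. Depth limits single tile pairs, which often hold under 20 read pairs, and single windows of other chromosomes.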
